A study of Homo sapiens with 16 samples.

Results

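The regions described here carried a peak in both lists of 1 replicate pair, called pair C, and in none of the other 6 peak lists of the series. Chaining the peaks of the 8 lists wherever they shared 1 bp or more on a strand gave 36802 regions, and 1060 of them were selected on this pattern of peak presence. The data are RNA immunoprecipitation sequencing (RIP-seq) of H1299, a human lung carcinoma cell line, with stable expression of Myc-tagged PABPC1. The tagged protein was either wild type (WT) or carried K512R, which puts arginine in place of a lysine, and was pulled down with an anti-Myc antibody, with or without 500 µM sodium arsenite (AS). Each list holds peaks, which are intervals with enriched reads as the peak caller of the authors placed them, and the sources used here do not say whether untagged PABPC1 remained in the cells or how many clones each line held.

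The names of the lists and the sample record disagree on what pair C is. By the names it is untreated K512R, and by the record it is the immunoprecipitate (IP) of WT cells given AS. The other pairs are A (untreated WT by name, untreated WT IP by record), B (WT with AS by name, untreated WT input by record) and D (K512R with AS by name, WT input with AS by record). The disagreement touches 6 of the 8 lists, and the other 8 of the 16 samples, all recorded as K512R, are not analysed here. The regions are therefore called by their rule, as regions only in pair C, and not by a condition. The lists are numbered by replicate (C1 and C2, for example), and nothing in the labels says that replicates came from separate cultures.

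PABPC1 is the main cytoplasmic poly(A)-binding protein. It coats the poly(A) tails of mRNAs, joins the tail to the translation machinery at the cap, and takes part in the control of mRNA stability. Arsenite is an oxidative stressor that stops the start of translation and drives mRNAs with their proteins into stress granules, and PABPC1 is a usual component of these granules. SUMO is a small protein that is attached to lysines, so arginine at a SUMO site blocks the attachment there. In RIP-seq whole RNAs come down with the protein, so a peak marks a stretch of enriched RNA and not a contact point of the protein.

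The regions only in pair C were 2.88% of all regions and 5.07% of the 20905 that C1 and C2 both held. By the same rule 240 regions were only in pair A (0.652% of all and 1.3% of those in A1 and A2), 519 only in pair B (1.41% and 2.94%) and 324 only in pair D (0.88% and 1.87%). Pair C also had the longest lists, with 24183 peaks in C1 and 25111 in C2, against 19953 to 22083 in the other 6. Regions found in 1 list alone were likewise more numerous in C1 (1051) and C2 (1409) than in any other list (538 to 734). With all lists cut to the 19953 peaks of best score, 527 regions were only in pair C, against 594 in B, 440 in D and 303 in A, so the count of pair C was the highest of the 4 with all peaks and not at equal list length. With peaks of a score of 50 or more the counts were 770, 413, 262 and 147 for C, B, D and A. The count rested on lists of A more than on those of B and D: it was 1593 without A2 and 1526 without A1, and 1105 to 1129 when a list of B or D was left out. With C1 left out, C2 alone defined 2469 regions, and with C2 left out, C1 alone defined 2111. Presence in the lists chose these regions, so the counts are a description and no test was made.

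**Figure D1:**
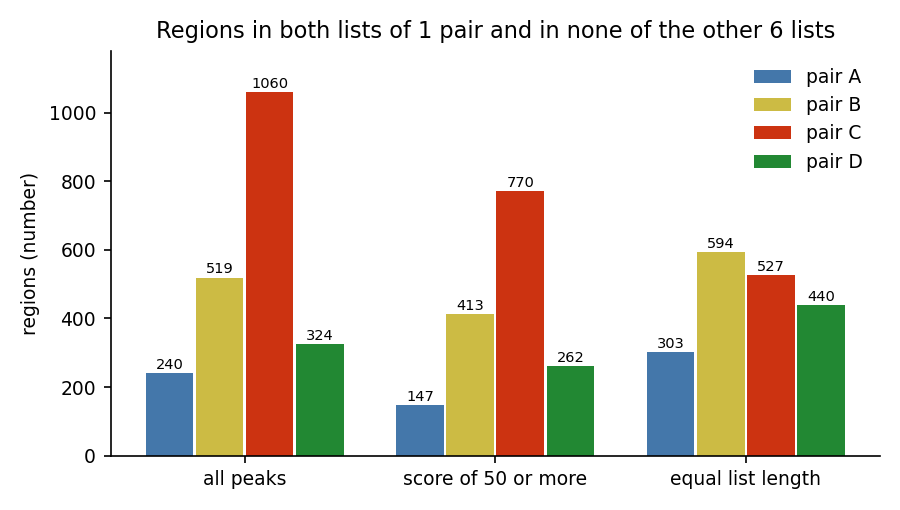
The bars give the number of regions found in both lists of 1 pair and in none of the other 6 lists, for pairs A to D, with all peaks, with peaks of a score of 50 or more, and with all lists at the length of the shortest. Pair C has 1060 regions with all peaks and 527 at equal list length, where pair B has 594. Of its 770 regions with a score of 50 or more, 202 have the same coordinates as one of the 1060.

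Most of the regions were weakly scored. The authors gave each peak a score of unstated scale, between 13.02 and 3233.06, which ranks the peaks of a list and is set between groups of regions as a percentile within its list, 100 being the best. It is also given as deposited for single regions and for cuts on the score. The median score of the 1060 regions was 30.9 in C1 and 34.5 in C2, at percentiles of 18.9 and 20.6. Regions of both C lists that other lists shared lay at median percentiles of 57.3 and 59.2. In C1 the middle range of the regions only in pair C, between quartiles, was percentile 8.77 to 31.3, and in C2 it was 10.1 to 34.5. A score under 100 in both lists was given to 867 regions, and 39 regions (3.68%) stood above the median percentile of 50 in both. Regions only in pair A had median percentiles of 14.5 and 15.0, those only in B 20.9 and 24.8, and those only in D 20.3 and 23.0, so low scores were shared by all 4 sets. The score and the presence that chose the regions come from the same peak calls.

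The share of regions that were only in pair C was lower at higher scores. Regions of both C lists were divided into 10 steps by the poorer of their C1 and C2 percentiles. In the lowest step 454 of 2058 regions (22.1%, 95% exact binomial interval 20.3 to 23.9) were only in pair C, and in the next 270 of 1974 (13.7%, 12.2 to 15.3). The share was 2.47% (1.86 to 3.22) from percentile 40 to 50, and 3 of 2153 regions (0.139%, 0.0287 to 0.407) in the highest step. These intervals cover counting error only, and regions are not independent replicates. The percentiles of the 1060 regions in C1 and C2 had a Spearman rho of 0.45, and those of the shared regions 0.92, over a wider range of scores. This is a correlation across regions of 2 libraries, given as a description.

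**Figure D2:**
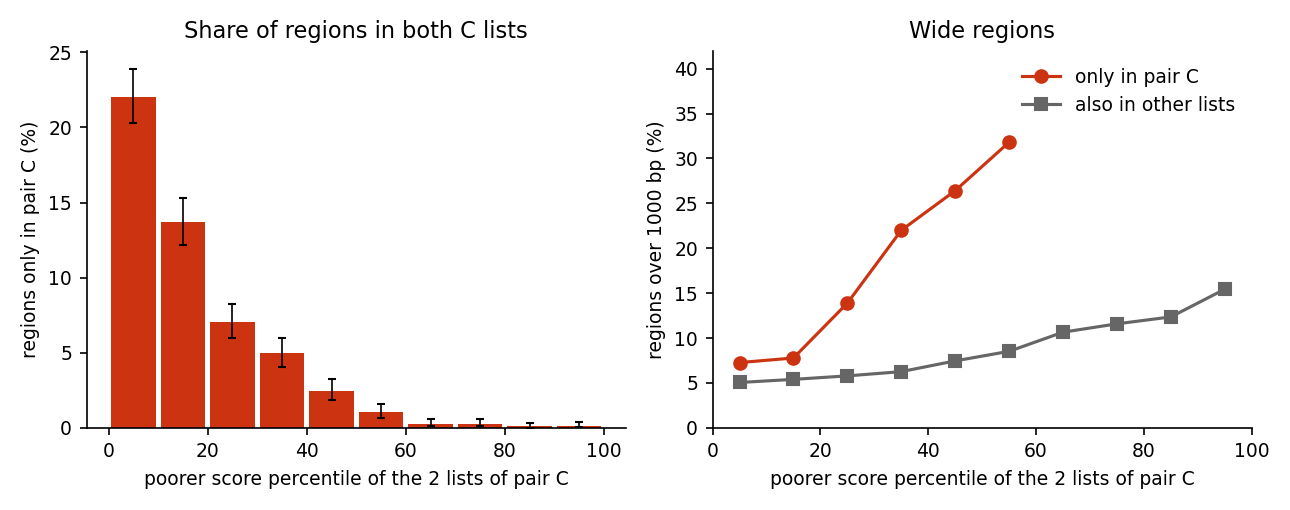
The left panel gives, for regions in both C lists, the percentage that were only in pair C in 10 steps of the poorer score percentile, with 95% exact binomial intervals, and goes from 22.1% to 0.139%. The right panel gives the percentage of regions over 1000 bp in the same steps, for regions only in pair C (steps with at least 20 of them) and for regions shared with other lists, and the first lies above the second in each step shown.

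A few regions only in pair C were strong, and they are described one by one. Coordinates are hg19, counted from 1. Genes are not named, since coordinates of genes were at hand for GRCh38.p14 alone, a different build, and no sequence is printed for the same reason. A score of 3100, where many peaks of every list are tied, was reached in both C lists by 3 regions: at chr16:30207122-30208422 (plus strand, 1301 bp), at chr12:53837175-53837875 (plus strand, 701 bp) and at chr20:44035847-44036419 (plus strand, 573 bp). The first of these stood alone, with the nearest peak of any list on its strand 110423 bp away. A region at chrX:13060838-13061068 (minus strand, 231 bp) scored 2179.9 in C1 and 1992 in C2. The fifth, at chr11:8705806-8706962 (plus strand, 1157 bp), scored 1688 and 2439. These 5 were the regions with a score of 1000 or more in both lists.

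The strong regions lay in different surroundings. On chromosome 12 a region that all 8 lists held, at 53839799 to 53840429, lay 1923 bp downstream. On chromosome X the region sat between other regions of all 8 lists, 1433 bp away at 13058599 to 13059404 and 1590 bp away at 13062659 to 13062917. On chromosome 20 the region lay 209 bp upstream of a region of all 8 lists, at 44036629 to 44037246. On its other side, 596 bp away, a region at 44034861 to 44035250 had a peak in the 6 lists of A, B and D and in neither list of C. There the scores were 3100 in A1, A2, D1 and D2, 2219.7 in B1 and 1789 in B2. Pair C thus had a peak next to the place where the other lists had theirs.

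On chromosome 11 too a region that only pair C lacked lay nearby. Its peaks covered 634 bp in C1 and 698 bp in C2 and overlapped in part. A region starting 262 bp downstream, at 8707225 to 8711392 (4168 bp), had a peak with a score of 3100 in each of the 6 lists of A, B and D and none in C1 or C2. Over the whole genome 121 regions were in every list of A, B and D and in neither of C, and 4 of them lay within 1 kb of a region only in pair C on the same strand. The other 2 were at chr2:231577557-231577945 (plus strand), 317 bp from the region at 231578263 to 231578773, and at chr3:50336252-50336548 (minus strand), 95 bp from the region at 50336644 to 50336899. The latter pair of regions had C1 and C2 scores of 211 and 173 on chromosome 2 and of 109 and 174 on chromosome 3. The 4 regions with such a neighbour are 0.377% of those only in pair C, and 12 of the 19845 shared regions (0.0605%) also had such a region within 1 kb. As the nearest neighbour at any distance, such a region was found for 0.377% of regions only in pair C, beside 0.34% over all regions, so 4 places are too few to describe the set.

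The other 7 of the 12 best-scored regions had scores of 353 to 1206 in the C lists. At chr4:108968701-108969907 (minus strand, 1207 bp) the scores were 1206 and 752, and the nearest peak of another list was 14871 bp away. At chr5:154179433-154179602 (plus strand, 170 bp) they were 648 and 760, and a region 1964 bp downstream was held by the lists of A and C and by none of B and D. At chr19:39903750-39904052 (plus strand, 303 bp) they were 773 and 695. Next to it, 399 bp away, lay a region held by A1 and A2 alone, at 39904452 to 39904835, with scores of 24.4 and 198. At chr1:154986924-154988290 (plus strand, 1367 bp) the scores were 445 and 564, and 405 bp downstream a region of 1941 bp was held by A1, A2 and C1. Within 3 kb of these last 3 regions lists of A had peaks and lists of B and D had none. The remaining 3 were at chr14:50999118-50999376 (minus strand, scores 640.2 and 713), at chr18:21086439-21086606 (minus strand, 616 and 687) and at chr16:84135226-84135712 (minus strand, 481 and 353), with the nearest peak of another list 49983, 68513 and 5815 bp away.

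**Figure D3:**
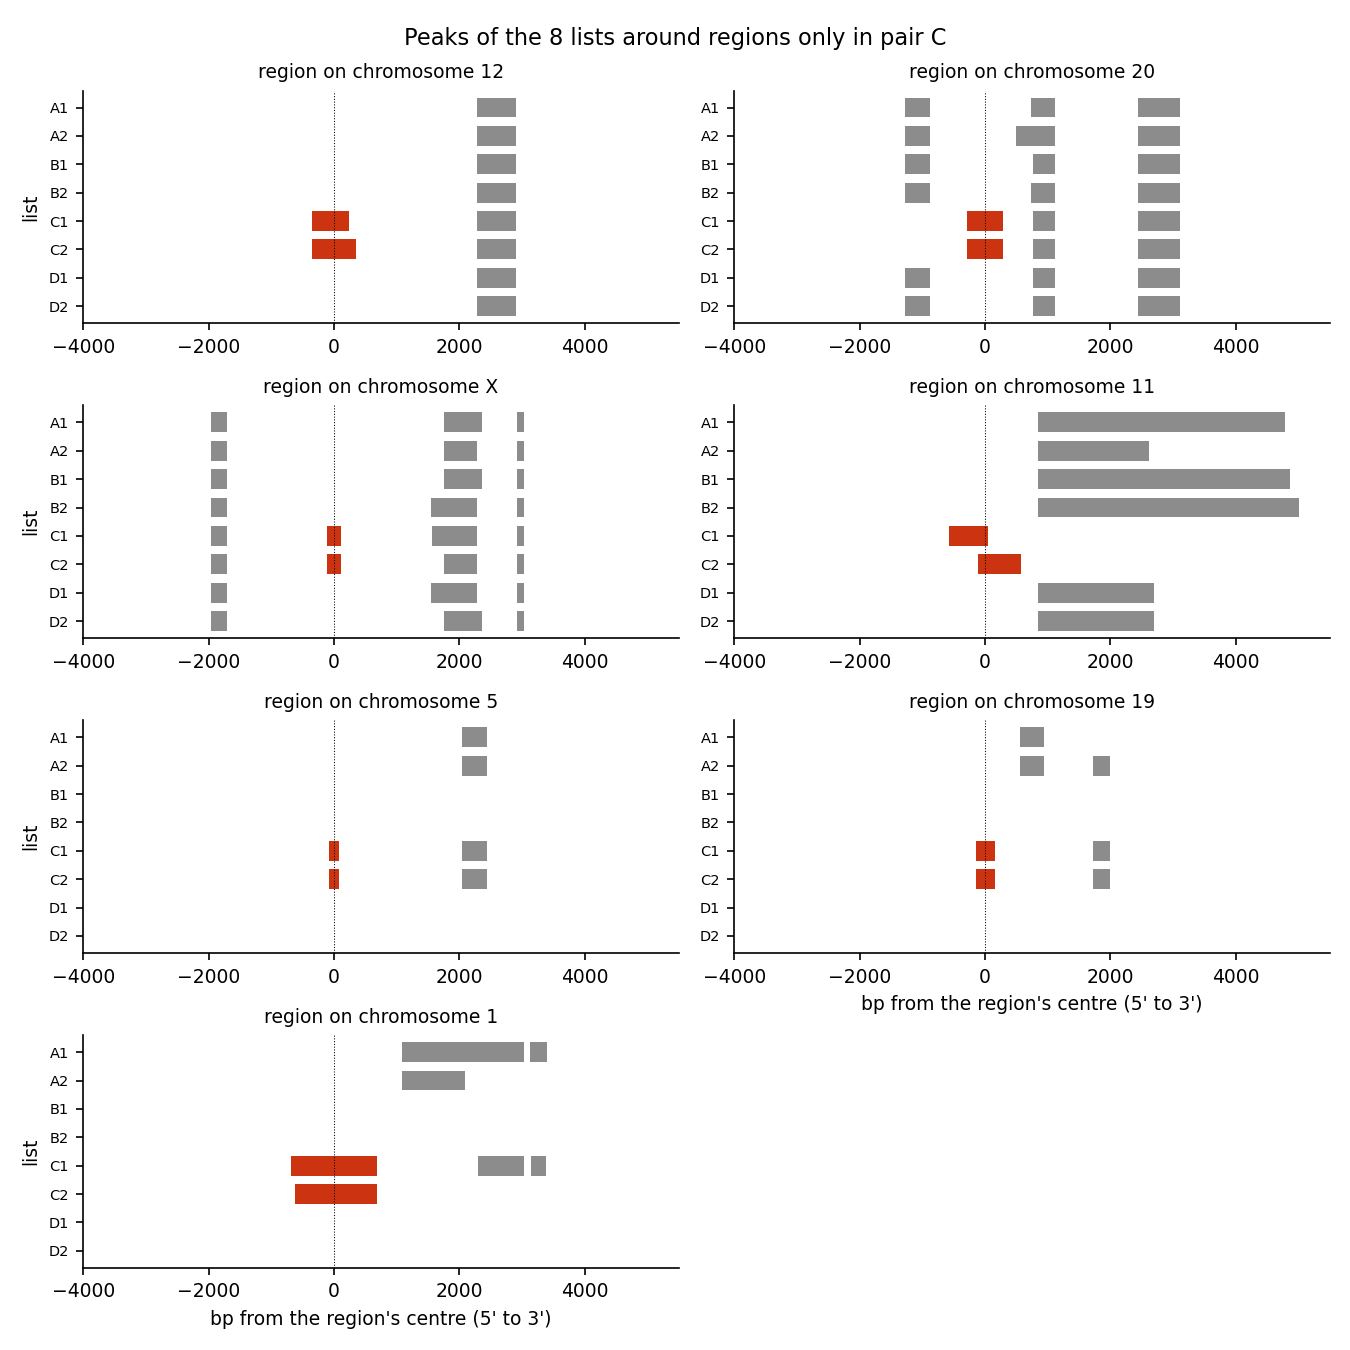
Each panel shows the peaks of the 8 lists (rows) around 1 of the 7 best-scored regions only in pair C that had another region within 3 kb on the same strand, by distance in bp from the region's centre, 5' to 3'. The peaks of the region are red and all other peaks grey, and on chromosomes 20 and 11 a grey peak of all 6 lists of A, B and D lies beside the red ones and is missing in C1 and C2.

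The regions only in pair C were of ordinary median width and held many wide ones for their scores. Their width ranged from 25 to 7473 bp, with a median of 175 bp beside 180 bp over all regions. Over 1000 bp were 130 of them (12.3%), beside 8.58% of all regions, 6.67% of those only in A, 6.17% only in B and 10.5% only in D. Over 2000 bp the shares were 6.23% for C, 2.54% for all regions, 0.833% for A, 1.73% for B and 3.09% for D. For comparison with shared regions on an equal footing, width was also taken as the summed width of a region's peaks in C1 and C2, averaged. By this measure 123 regions only in pair C (11.6%) and 1806 of 19845 shared regions (9.10%) were over 1000 bp. An excess over shared regions was not particular to pair C. In D1 8.64% of regions only in D and 6.23% of shared regions were over 1000 bp, and in D2 9.57% and 6.32%. In the lists of A and B the share was lower than among their shared regions. Scores were matched for pair C alone, and at equal scores its gap was larger. From percentile 30 to 40, 22 of 100 regions only in pair C (22.0%) and 6.26% of shared regions were over 1000 bp. From 40 to 50 the shares were 14 of 53 (26.4%) and 7.46%. In the lowest step the shares were 7.27% and 5.05%. Width was not used by the rule, but regions of 1 pair of libraries are not replicates, so no test was made.

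The widest region lay at chr16:66648653-66656125 (minus strand, 7473 bp), with scores of 32.8 in C1 and 125 in C2. It was followed by those at chr16:23073909-23080937 (minus strand, 7029 bp, scores 35.7 and 165) and at chr9:116810931-116817167 (plus strand, 6237 bp, 46.8 and 107). The next were at chr5:134190588-134195425 (plus strand, 4838 bp, 16.0 and 90.4), at chr4:42112990-42117768 (minus strand, 4779 bp, 35.7 and 13.9) and at chr17:79876187-79880933 (minus strand, 4747 bp, 73.5 and 111). The widest regions were thus low or middling in score.

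Wide regions had close neighbours on their 5' side and far ones on their 3' side. Of the 123 regions only in pair C over 1000 bp, 100 (81.3%, 95% exact binomial interval 73.3 to 87.8) had their nearer neighbouring region on the 5' side, and the median gap was 4462 bp on that side and 66527 bp on the 3' side. Of regions up to 1000 bp, 472 of 934 (50.5%, 47.3 to 53.8) had the nearer neighbour on the 5' side, with median gaps of 7236 and 8041.5 bp. Of shared regions up to 1000 bp, 42.7% (41.9 to 43.4) had it there, with median gaps of 8479 and 6185 bp. These intervals cover counting error only, and regions are not independent replicates. The sets were not matched for score here, and the difference between their narrow regions was not tested. Shared regions over 1000 bp had overlapping intervals with the wide ones only in pair C, with the nearer neighbour on the 5' side in 77.5% (75.5 to 79.4) and median gaps of 5751.5 and 72263.5 bp. In human mRNAs the last exon, with most of the 3' untranslated region, is as a rule the longest, but where these regions lie in transcripts was not analysed.

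The ends of the peaks agreed closely between C1 and C2. In 1056 of the 1060 regions each list had 1 peak, and in 884 of these (83.7%, 95% exact binomial interval 81.3 to 85.9) both ends were identical to the base. For regions of both C lists that other lists shared this was 85.3% (84.8 to 85.7). Among regions only in pair B it was 89.4% (86.4 to 91.9), only in D 72.5% (67.3 to 77.3) and only in A 63.8% (57.3 to 69.8). Where ends differed in pair C, the 3' end alone differed in 108 regions, the 5' end alone in 47 and both in 17, with a median difference of 41 bp. The 3' end reached more than 20 bp further in C2 in 51 regions and in C1 in 28.

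The surroundings of the regions differed between the lists. For each list, a region was counted when the list had another peak within 10 kb on the same strand, apart from peaks of the region itself. Of the 1060 regions only in pair C, 66.6% had such a peak in C1 and 69.2% in C2, and 51.5% in A1 and 52.5% in A2. In the lists of B and D the shares were 23.1% (B1), 25.9% (B2), 22.0% (D1) and 23.7% (D2). The means were thus 67.9% ± 1.87 in C, 52.0% ± 0.734 in A, 24.5% ± 2.0 in B and 22.8% ± 1.20 in D (SD, n = 2 lists each), and the lists of A and C did not overlap with those of B and D. Over all regions the means were 60.3% ± 0.676 in C, 56.2% ± 0.221 in A, 53.1% ± 0.819 in B and 52.4% ± 1.24 in D. There too the lists of A and C did not overlap with those of B and D, so the order is not particular to pair C, though the gap was smaller. The gap was larger than the spread between replicates. An exact test of 2 lists against 2, or of the 2 of A against the 4 of B and D, cannot reach 0.05, and none was made. Presence in the lists chose the regions, so the lists of A and C were not tested against those of B and D either.

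Shared regions had neighbours in the lists of B and D more often. Among the 9219 shared regions with a poorer percentile of 50 or less, another peak lay within 10 kb in 65.3% ± 1.12 for C, 61.0% ± 0.13 for A, 52.2% ± 0.729 for B and 51.6% ± 1.51 for D (SD, n = 2 lists each). The 1021 regions only in pair C up to that percentile had 68.0% ± 2.01, 51.4% ± 0.762, 23.8% ± 2.15 and 22.4% ± 1.11, but 454 of them lay in the lowest step of score, against 1604 of the 9219. The comparison was therefore also made within single steps, a split chosen after these values were seen. In the lowest step the shares for regions only in pair C were 63.4% ± 3.43 for C, 47.1% ± 0.312 for A, 22.8% ± 1.40 for B and 23.6% ± 0.935 for D, beside 56.9% ± 1.5, 52.7% ± 0.132, 46.4% ± 1.23 and 45.3% ± 0.705 for shared regions. From percentile 30 to 40 they were 75% ± 2.83, 52.0% ± 2.83, 23.5% ± 3.54 and 20.5% ± 2.12, beside 68.6% ± 0.738, 63.8% ± 0.221, 53.5% ± 0.738 and 53.4% ± 1.55. In both steps the lists of B and D had peaks near shared regions more often, by more than the spread between replicates. Regions only in pair B showed the mirrored order, with 69.5% ± 2.04 for B, 61.7% ± 1.09 for D, 39.5% ± 2.18 for C and 35.6% ± 1.36 for A. Regions only in D had 57.7% ± 1.31 for D, 54.5% ± 1.09 for B, 42.4% ± 1.96 for C and 37.8% ± 0.218 for A, a smaller gap than for regions only in B. Regions only in A had 48.8% ± 1.18 for A, 52.3% ± 0.884 for C, 29.0% ± 0.884 for B and 31.7% ± 1.77 for D. Neighbouring peaks were not used by the rule, but they come from the same lists. Regions only in pair C were chosen for having no peak in any list of A, B or D, and shared regions have a peak in another list. Fewer neighbours in those lists than near shared regions may therefore follow from the rule, also at equal scores, and how far was not tested. The rule left out A in the same way as B and D, and why A had more neighbours than B and D was not tested. A list gives no amount of RNA, so less of an RNA in the cells and less of it in the library cannot be told apart.

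**Figure D4:**
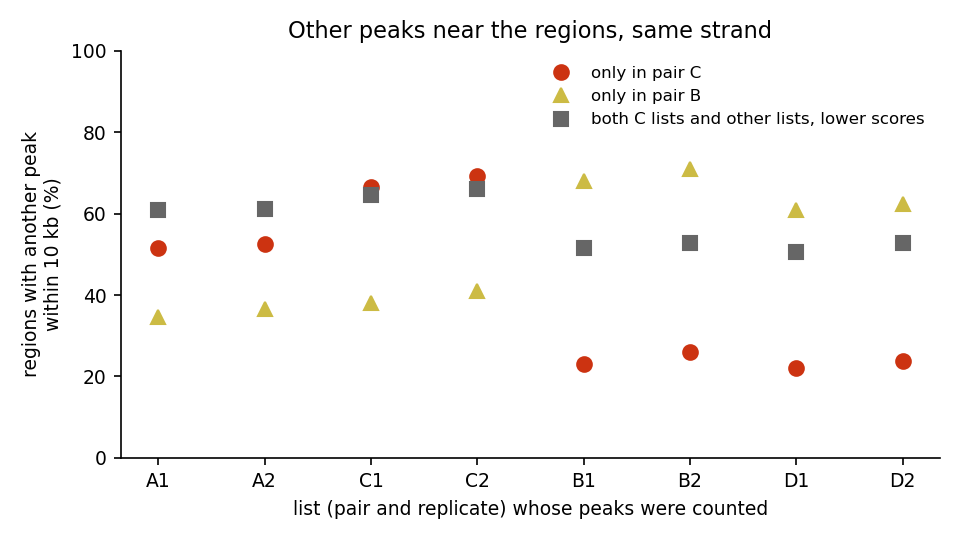
Each point gives, for 1 list on the x axis, the percentage of regions with another peak of that list within 10 kb on the same strand. Circles are the 1060 regions only in pair C, triangles the 519 only in pair B, and squares the 9219 shared regions of both C lists with a poorer score percentile of 50 or less; the circles lie at 51.5% to 69.2% in the lists of A and C and at 22.0% to 25.9% in those of B and D.

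Single neighbours showed the same pattern. The region nearest to a region only in pair C on its strand was in no list of B or D in 698 of 1060 cases (65.8%), beside 24.7% over all regions, 45.8% for regions only in A, 4.62% only in B and 8.95% only in D. It was in all 8 lists in 79 cases (7.45%), beside 28.8% over all regions and 17.5%, 14.8% and 19.4% for regions only in A, B and D. It was itself only in pair C in 140 cases (13.2%), beside 2.92% over all regions and 5.83%, 0.193% and 0.617% for regions only in A, B and D. It was in C1 alone or C2 alone in 181 cases (17.1%), beside 6.38% over all regions and 13.3%, 1.16% and 3.70% for A, B and D. For regions only in A, B and D both of these shares count neighbours of another pair, C. How often their nearest region was of their own set is not given here. Regions only in A thus came nearest to those only in C on these measures, except for the share in all 8 lists, where regions only in B did. The distance to the nearest region had a median of 3260.5 bp, beside 3591.5 bp over all regions and 4900, 3287 and 4471 bp for regions only in A, B and D. It was 1 kb or less for 154 regions (14.5%), beside 14.9% over all regions and 18.3%, 12.5% and 19.4% for A, B and D. The nearest peak of any of the other 6 lists lay at a median of 5618 bp, within 1 kb for 98 regions (9.25%) and within 100 kb for 1000 (94.3%). For regions only in A, B and D the corresponding medians were 5758.5, 4898 and 5557 bp, and 17.9%, 11.2% and 17.3% had such a peak within 1 kb.

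Some regions only in pair C stood in short rows, and 825 of the 1060 stood alone. With regions ordered along each strand, 86 rows of 2 and 21 rows of 3 were made of such regions with no other region between them. None was longer, while regions only in B also had 1 row of 4. The rows of pair C held 235 of the 1060 regions (22.2%), against 5.0% of regions only in A, 14.5% only in B and 7.10% only in D. Those sets are smaller and so have fewer chances to be neighbours. Rows were thus not particular to pair C. The shortest row of 3 spanned 2073 bp at chr9:135776102-135778174 (minus strand), and the longest 49684 bp at chr6:151281411-151331094 (plus strand). Rows of 3 lay 3 times each on chromosome 12, 21 and 22, the last at 24698163 to 24726399, 30074185 to 30094589 and 47022648 to 47054204, all on the plus strand. The closest neighbours were 124 bp apart on the minus strand, at chr10:51464189-51465180 (scores 124 and 152) and 51465305 to 51465939 (180.3 and 119). The nearest peak of another list on that strand was 92817 bp away. The next closest were on the minus strand of chromosome 4, where the region at 42118133 to 42119752 followed the wide one named above at 364 bp, and on the minus strand at chr16:2349404-2349533 and 2350006 to 2350149, 472 bp apart.

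The regions were spread over 24 chromosomes. They fell in 628 of the 2168 windows of 1 Mb that held a region, and 21 windows had 5 or more. The window of chromosome 16 from 2000001 to 3000000 had the most, 12 of its 58 regions in both C lists. Of the regions in both C lists, 8.09% on chromosome 21 (19 of 235, 95% exact binomial interval 4.94 to 12.3), 7.93% on chromosome 22 (46 of 580, 5.86 to 10.4) and 6.54% on chromosome 16 (58 of 887, 5.0 to 8.37) were only in pair C, beside 5.07% over the genome. The share was 3.43% on chromosome X (22 of 641, 2.16 to 5.15), 3.20% on chromosome 18 (13 of 406, 1.72 to 5.41) and 3.82% on chromosome 11 (40 of 1046, 2.75 to 5.17). The interval of chromosome 22 alone lay wholly above the value for the genome, out of 24 that were looked at. These intervals cover counting error only, and regions that stand in rows, some of them on chromosome 22, are not independent. Chromosome 22 held 4.34% of the regions only in pair C and 2.58% of all regions, and 3.33%, 1.35% and 0.309% of those only in A, B and D. By strand, 576 regions (54.3%) were on the plus strand, beside 51.6% of all regions. A peak on the opposite strand overlapped 1 of the 1060 regions.

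**Figure D5:**
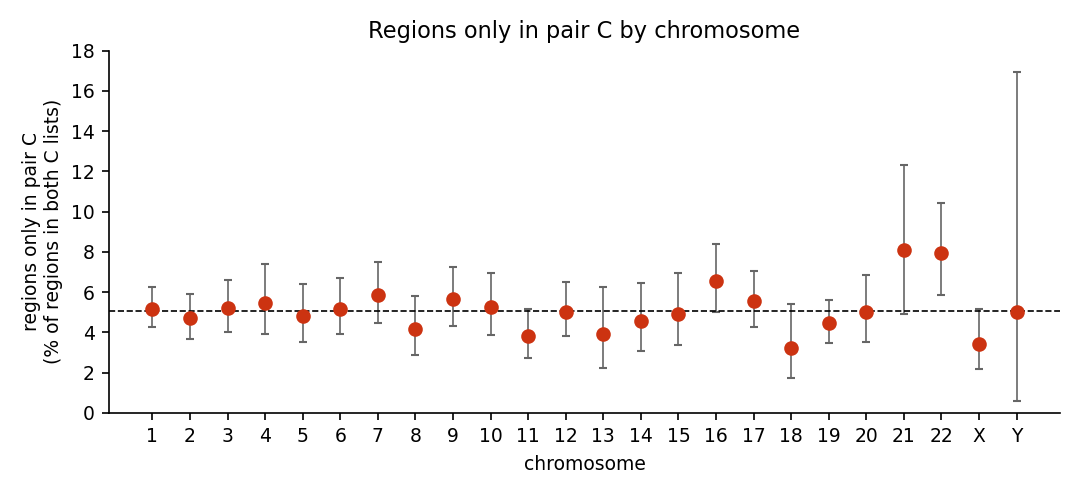
Points give, for each chromosome, the regions only in pair C as a percentage of the regions in both C lists, with 95% exact binomial intervals that cover counting error only, and the dashed line is the value over the genome, 5.07%. Chromosomes 21 and 22 have the highest points, and only the interval of chromosome 22 lies wholly above the line.

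The rule has its edge where 1 other list joins in. Both C lists and exactly 1 of the other 6 held 1221 regions, with a median poorer percentile of 17.9 beside 12.7 for the 1060 regions with no other list. The other list was A1 in 466 of them and A2 in 533, and B1, B2, D1 or D2 in 45, 69, 49 and 59. The best scored of these were at chr20:60963686-60966167 (minus strand, 2482 bp, also in A1), at chr15:44093716-44094449 (plus strand, 734 bp, also in B1) and at chr22:38713165-38713444 (minus strand, 280 bp, also in B2), each with a score of 3100 in C1 and C2. At the other edge, the poorest regions inside the rule were at chr6:158919701-158919844 (plus strand, scores 16.2 and 13.03), at chr17:38233124-38233191 (plus strand, 19.9 and 13.03) and at chr2:209204142-209204279 (plus strand, 13.03 and 15.5), at the lowest scores of the lists. Of all 4221 regions found in exactly 2 lists, 25.1% were those of C1 and C2.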

How the data were processed

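RNA from anti-Myc immunoprecipitates and input of H1299 cells was depleted of ribosomal RNA and sequenced, as the labels' protocols say. Tools in the submitters' processing notes are HISAT2 2.0.4 and cutadapt 1.9.3, with build hg19, and the peak names begin with MACS. No source used here gives its version, control or threshold. The authors deposited 1 list of peaks per sample, with a score of unstated unit, for 8 samples. Samples were grouped by the titles of their records. Peaks were joined into regions (1 bp, same strand), score percentiles taken within each list, and counts set side by side without a test, since presence in the lists chose the regions. Read depth is unknown. Named regions were the 12 with the best poorer percentile, the 6 widest, the 3 closest pairs, the 3 poorest, and the 3 best with 1 other list; others came from the comparison they stand in, and were chosen after their values were seen. Joining and rule were tested on simulated lists. Alternatives changed overlap, gap, strand, score, list length, presence rule and replicates. The members and the measures were chosen with earlier results of these data known. The planned gene names, gene lists, U content and place in transcripts were not run, because no genome or gene table of the build was used here. The scripts ran under matplotlib 3.10.9, scipy 1.17.1, pandas 2.3.3, numpy 2.4.6 and Python 3.11.15.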

Additional observations from a re-analysis of the deposited data

How the results depend on the processing

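Requiring 10 or 50 bp of overlap, joining peaks up to 100 or 1000 bp apart, ignoring strand or requiring a score of 20 kept each of the 4 counts within 1.5 times its value, and for pair C they gave 958 to 1060. With a score of 50 or more 147 regions were only in A, and at equal list length 527 were only in C. Of these 527, 355 had the same coordinates as one of the 1060; with a score of 50 or more this held for 202 of 770, since removing weak peaks empties other lists too. Allowing 1 other list gave 702 regions for A, 1102 for B, 2281 for C and 817 for D. Leaving out 1 list at a time gave 257 to 941 regions only in A, 543 to 1253 in B, 1105 to 2469 in C and 344 to 1016 in D. Past 1.5 times were C without A2 (1593), C1 (2469) or C2 (2111), A without A1 (894), A2 (941), C1 (392) or C2 (455), B without B1 (1253) or B2 (1057), and D without B2 (503), D1 (1016) or D2 (875); without a list of its own pair, 1 list alone defines the set. The median width was 177.5 bp with a score of 20 or more, 195 bp at equal list length and 174 bp with 1 other list allowed. The median percentile, averaged over C1 and C2, was 19.8, and 27.1, 35.7 and 22.4 under these settings. The share with another region within 1 kb was 12.1% at equal list length. Identical ends stayed within their interval in every setting run. No paired analysis was possible because no result comes from a test.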
